A study of Drosophila melanogaster with 6 samples.

Results

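Pyruvate dehydrogenase and the enzymes of the tricarboxylic acid (TCA) cycle were described by their transcripts in Kc-167 cells, an embryonic Drosophila melanogaster line with features of haemocytes, 5 days after RNA interference (RNAi). The members were 10 genes taken by symbol: muc, Pdha and Pdhb of the pyruvate dehydrogenase complex, and kdn, mAcon1, Idh, Idh3a, Scsalpha1, Fum1 and Mdh2 of the cycle and its side reactions. Of the 10, 5 had a probe set named for them alone, muc, mAcon1, Idh3a, Idh and Scsalpha1, each with a single one, out of 10844 genes with such a probe set on the array. Pdha and Pdhb (the alpha and beta subunits of pyruvate dehydrogenase), kdn (citrate synthase), Fum1 (fumarase) and Mdh2 (mitochondrial malate dehydrogenase) were not analysed here, so the values below cover 5 of the 10 chosen genes, without either subunit of the first pyruvate dehydrogenase enzyme. Ogdh, a subunit of the 2-oxoglutarate dehydrogenase complex, was left out of the members because its change was already known from these data, and it is given beside them as a description.

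The study silenced Enigma with double-stranded RNA and used double-stranded RNA to beta-lactamase, which has no counterpart in the fly genome, as its control. Enigma (CG9006, current symbol Egm) is a relative of the acyl-CoA dehydrogenases, mitochondrial enzymes that start the beta-oxidation of fatty acids. Both groups were the same cell line, both were given 20 µg of double-stranded RNA with 1 hour without serum, and both were harvested at 5 days. There were 3 Affymetrix arrays per group, numbered 1 to 3 in the titles, and the control and Enigma RNAi arrays with the same number are called a pair. No label says that replicates came from separate cultures, so the spread behind the p-values may be technical.

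The pyruvate dehydrogenase complex turns pyruvate into acetyl-CoA in the mitochondrial matrix, and beta-oxidation makes acetyl-CoA from fatty acids in the same compartment. The cycle joins acetyl-CoA to oxaloacetate, oxidises the citrate that forms by way of isocitrate, 2-oxoglutarate, succinyl-CoA, succinate, fumarate and malate, and hands the electrons to the respiratory chain. Pyruvate dehydrogenase and 2-oxoglutarate dehydrogenase are built alike, from a decarboxylase (E1), a lipoate-bearing acyltransferase (E2) and a dihydrolipoamide dehydrogenase (E3).

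Levels are log2 values from GCRMA, group values are mean ± SD (n = 3), and each difference is the Enigma RNAi level minus the control level. A probe set was tested if 3 or more of the 6 arrays had a level above 4. It passed where the p from limma, adjusted by Benjamini-Hochberg for the 6975 probe sets tested, was under 0.05. All 5 measured members passed this filter, with levels from 8.91 to 11.27 over the 6 arrays. Levels of different probe sets are not compared, since each probe set has its own response. In RNA from a whole culture, fewer cells of a type and less RNA per cell cannot be told apart.

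The targeted transcript was lower in every Enigma RNAi array, at 3.24, 3.51 and 4.21 against 6.00, 6.41 and 6.71 in controls. With values under 4 raised to 4, as on 2 of the Enigma RNAi arrays, it was at least 4.95-fold lower, a difference of -2.31. The difference as measured was -2.72 with a standard error of 0.29, past the threshold when the replicate number was a block (limma, adjusted p = 0.000118) and not without it (limma, adjusted p = 0.283). Of the listed plasmatocyte markers with a probe set, 5 of 9 passed the filter, Hml, Pxn, vkg, Col4a1 and srp, while NimC1, eater, Sr-CI and crq were below it. Of the markers of other cell types, those of lamellocytes and fat body with a probe set were all below the filter, 2 and 3 genes. Of crystal cells lz passed the filter while PPO1 and PPO2 did not, and of muscle Mlc2 passed it while up did not. Of neurons elav and brp passed it while nSyb and para did not, and bam of the germline passed it. Both lz and Mlc2 lay near the cutoff of 4, with means of 4.12 and 3.98 in controls and 4.08 and 4.25 after Enigma RNAi. Of all genes with a probe set of their own, 5757 of 10844 passed the filter. Among the same-numbered arrays, deviations from the group means went together (r = 0.80, 0.64 and 0.65 across probe sets for numbers 1, 2 and 3).

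None of the 5 measured members passed the threshold, and their differences ran from -0.21 to 0.55 with a median of -0.09, against a median of -0.03 over all 5757 tested genes. In limma 0 of the 5 passed without the block, against 0.0% of all tested probe sets, and 0 passed with it, against 0.631%. At an unadjusted p under 0.05 there were 0 of 5 without the block, against 4.26%, and 1 of 5 with it, muc, against 19.3%. The mean of muc was higher after Enigma RNAi, and the means of Idh3a, Idh, Scsalpha1 and mAcon1 were lower by at most 0.21. The median of the members was -0.06, -0.14 and -0.02 in pairs 1, 2 and 3.

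**Figure D1:**
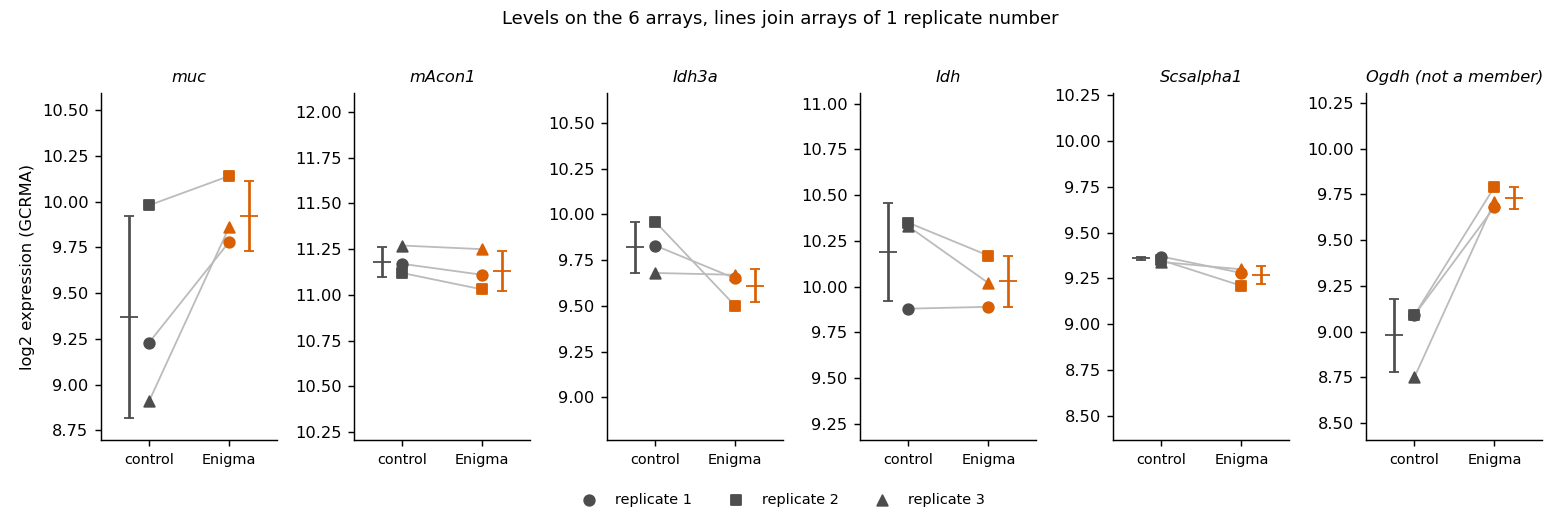
Levels of muc, mAcon1, Idh3a, Idh and Scsalpha1 and, for comparison, Ogdh on the 6 arrays, on the log2 scale, with each vertical axis covering the same span. Symbols are single arrays by replicate number, lines join arrays of 1 number, and bars beside them are mean ± SD with n = 3. The 3 control values of muc spread over 1.07, and the groups do not overlap for Ogdh, Idh3a and Scsalpha1.

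The gene muc (midline uncoordinated) encodes the E2 acetyltransferase that forms the core of the pyruvate dehydrogenase complex and passes the acetyl group to coenzyme A. Its levels were 9.23, 9.98 and 8.91 in controls 1, 2 and 3 and 9.78, 10.14 and 9.86 after Enigma RNAi. Every Enigma RNAi array was above its own control, by 0.55, 0.16 and 0.95, but the groups overlapped because control 2 lay above Enigma 1 and Enigma 3. The group means were 9.37 ± 0.55 and 9.92 ± 0.19 (SD, n = 3), so the 3 control arrays were farther apart than the means.

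The difference for muc was 0.55 with a standard error of 0.27, a fold of 1.47 with a 95% confidence interval of 0.932 to 2.31, and it did not pass (limma, adjusted p = 0.999). With the replicate block the standard error was 0.15, the interval was 0.21 to 0.90 on the log2 scale, and it still did not pass (limma with the block, adjusted p = 0.108). Over the 6 arrays the exact two-sided permutation p was 0.3, where 0.1 is the smallest that 3 against 3 allows. Of all tested probe sets, 2.05% had a difference as high as that of muc or higher. The size depended on single arrays, since it was 0.32 without control 3 and 0.86 without control 2. It passed only with the block and without replicate 1, at 0.56 (limma with the block, adjusted p = 0.0215), a fit of 2 pairs in which 595 probe sets passed.

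Beside the higher mean of muc, a sign of RNA quality differed between the groups. For the control transcript eIF4A, the 3' probe set was above the 5' one by 1.49, 1.22 and 1.43 in controls 1, 2 and 3 and by 1.67, 1.52 and 1.95 after Enigma RNAi. Like muc, this gap was higher in all 3 pairs and differed most in pair 3. The same held for Ogdh, at 0.59, 0.70 and 0.95, and for the malic enzyme Men-b, at 0.48, 0.22 and 1.12. It did not hold for every gene that was higher in all 3 pairs. The malic enzyme Men, at 0.55, 0.33 and 0.46, differed most in pair 1. So did ScsbetaA, a subunit of succinyl-CoA synthetase, at 0.31, 0.08 and 0.13. The gap and Ogdh differed least in pair 1, while muc and Men-b differed least in pair 2. The mean gap differed by 0.33 for eIF4A, by 0.17 for actin and by 0.07 for Gapdh, which was lower in pair 1, at 2.07 against 2.12. The part of these gaps in the values of the members, Ogdh and Men-b was not tested.

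The other part of this complex with a probe set was CG7430, which RefSeq also lists as E3. Its levels were 8.79, 8.81 and 8.72 in controls and 8.84, 8.61 and 8.84 after Enigma RNAi, a difference of -0.01 with a standard error of 0.11. Its pair differences of 0.06, -0.20 and 0.12 went both ways. In the same RNA, muc and CG7430 thus differed by 0.55 and 0.06 in pair 1 and by 0.16 and -0.20 in pair 2. In pair 3 they differed by 0.95 and 0.12.

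Mitochondrial aconitase, encoded by mAcon1, is an iron-sulphur enzyme that converts citrate to isocitrate. Its levels were 11.17, 11.12 and 11.27 in controls and 11.11, 11.03 and 11.25 after Enigma RNAi. Each Enigma RNAi array was below its own control, with differences of -0.06, -0.09 and -0.02, while the 3 controls alone spanned 0.15, and the groups overlapped. The difference was -0.05 ± 0.11 (SE), with a 95% confidence interval of -0.32 to 0.21, which as a fold is 0.803 to 1.16 (limma, adjusted p = 0.999). With array weights it was 0.01, with the opposite sign, and without single arrays it lay between -0.11 without Enigma 3 and 0.00 without Enigma 2.

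Idh3a encodes the catalytic alpha subunit of the NAD-dependent isocitrate dehydrogenase, which makes 2-oxoglutarate and NADH in the cycle. Its levels were 9.83, 9.96 and 9.68 in controls and 9.65, 9.50 and 9.67 after Enigma RNAi. All 3 Enigma RNAi values were below all 3 control values, but the nearest ones, 9.67 and 9.68, lay next to each other. The difference was -0.21 ± 0.12 (SE), with a 95% confidence interval of -0.50 to 0.07, and it did not pass without the block (limma, adjusted p = 0.999) or with it (limma, adjusted p = 0.349).

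The pairs of Idh3a differed in size, at -0.18, -0.46 and -0.01, and with the block it was -0.09 without replicate 2. The other subunits of this enzyme also had their lowest difference in pair 2. This was not particular to the enzyme. It held for muc, mAcon1, Scsalpha1, CG7430 and SdhC too, though not for Idh, Ogdh or SdhD. Idh3b, the beta subunit, differed by 0.01, -0.33 and -0.16 in pairs 1, 2 and 3, and Idh3g, the gamma subunit, by 0.28, -0.45 and -0.13. In pair 1 the 3 subunits therefore went different ways, while in pairs 2 and 3 all were lower. None of the 3 passed in limma, and the means differed by -0.16 with a standard error of 0.11 for Idh3b and by -0.10 with a standard error of 0.16 for Idh3g.

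Idh encodes the NADP-dependent isocitrate dehydrogenase, which runs the same carbon step outside the cycle proper and yields NADPH. Its levels were 9.88, 10.35 and 10.33 in controls and 9.89, 10.17 and 10.02 after Enigma RNAi. Both arrays numbered 1 were low, within 0.01 of each other, and in pairs 2 and 3 the Enigma RNAi array was lower, with differences of -0.17 and -0.31. The groups overlapped, and the difference was -0.16 ± 0.16 (SE), with a 95% confidence interval of -0.55 to 0.23 (limma, adjusted p = 0.999, and adjusted p = 0.446 with the block). It was -0.31 without control 1, -0.08 without control 2, -0.09 without control 3 and -0.09 without Enigma 1.

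Scsalpha1 encodes the alpha subunit of succinyl-CoA synthetase, which releases succinate from succinyl-CoA and makes a nucleoside triphosphate. Its levels were 9.37, 9.35 and 9.34 in controls and 9.28, 9.21 and 9.30 after Enigma RNAi. The groups did not overlap, and the controls were 0.03 apart. The difference was small all the same, at -0.09 with a standard error of 0.10 after limma's shrinkage of the spread, a fold of 0.938 with a 95% confidence interval of 0.802 to 1.10 (limma, adjusted p = 0.999, and adjusted p = 0.652 with the block). After cyclic loess it was -0.05.

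The alpha subunit pairs with 1 of 2 beta subunits, ScsbetaA or ScsbetaG, which set the nucleotide used. ScsbetaA differed by 0.31, 0.08 and 0.13 in the 3 pairs and ScsbetaG by -0.21, -0.53 and -0.49, so the beta subunits lay on opposite sides of 0 in every pair. The levels of ScsbetaG were 7.58, 7.60 and 8.17 in controls and 7.38, 7.06 and 7.68 after Enigma RNAi, with overlap between the groups. Its difference was -0.41 with a standard error of 0.22 (limma, adjusted p = 0.999, and adjusted p = 0.0944 with the block), and it was -0.22 without control 3 and -0.25 without Enigma 2 or with array weights. It passed with the block without replicate 1, at -0.51 (limma, adjusted p = 0.0248). Another probe set of ScsbetaG, below the filter on all 6 arrays, differed by 0.00. That of ScsbetaA was 0.17 with a standard error of 0.14, and the difference between the beta subunits was not tested.

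**Figure D2:**
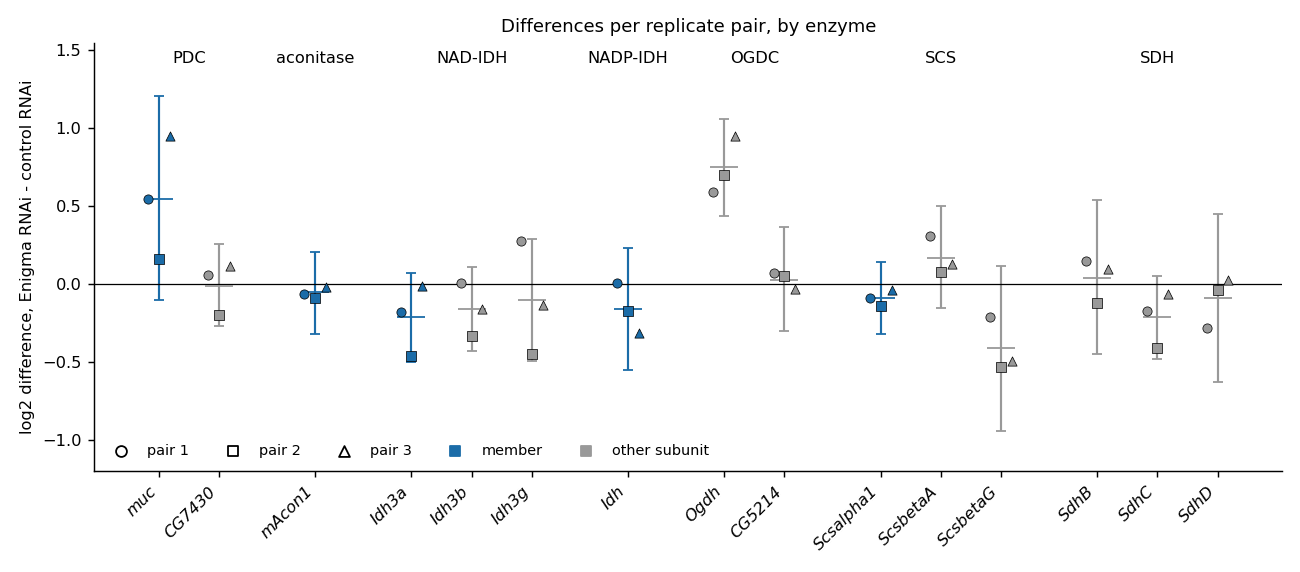
Log2 differences, Enigma RNAi minus control RNAi, for members (blue) and other subunits (grey) of each enzyme: PDC, pyruvate dehydrogenase complex; IDH, isocitrate dehydrogenase; OGDC, 2-oxoglutarate dehydrogenase complex; SCS, succinyl-CoA synthetase; SDH, succinate dehydrogenase. Symbols are the 3 pairs, horizontal marks the means and bars 95% confidence intervals from limma without the block. Only the bar of Ogdh, from 0.44 to 1.06, does not cross 0, and muc has the widest bar among the members, from -0.10 to 1.21. With the block, not drawn, the intervals of muc (0.21 to 0.90) and ScsbetaG (-0.65 to -0.17) do not cross 0 either. Neither gene passed the threshold in that fit.

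Ogdh, the E1 of the 2-oxoglutarate dehydrogenase complex, was measured at 9.09, 9.09 and 8.75 in controls and 9.68, 9.79 and 9.71 after Enigma RNAi. The groups did not overlap, the pair differences were 0.59, 0.70 and 0.95, and its difference was 0.75 with a standard error of 0.13. As this gene was known to change before it was set beside the members, these values are a description. Its call rests on the fit, since it passed in limma with the block (adjusted p = 0.0426) and not without it (adjusted p = 0.999), nor with the number as a random block (adjusted p = 0.102). With the block it also did not pass after quantile normalization (adjusted p = 0.116), after cyclic loess (adjusted p = 0.125), with no filter (adjusted p = 0.102), or without replicate 2 or 3 (adjusted p = 0.106 and 0.115). CG5214, listed by RefSeq with the synonym alpha-KGDHC, differed by 0.07, 0.05 and -0.03 in the 3 pairs. Among the tested genes of pyruvate dehydrogenase and the cycle, Ogdh and muc had the highest differences. CG7430 and CG5214 differed by -0.01 and 0.03. The change of Ogdh was known beforehand, and on all 6 arrays muc did not pass with the block or without it. No shared pattern is read from these 2 genes.

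**Figure D3:**
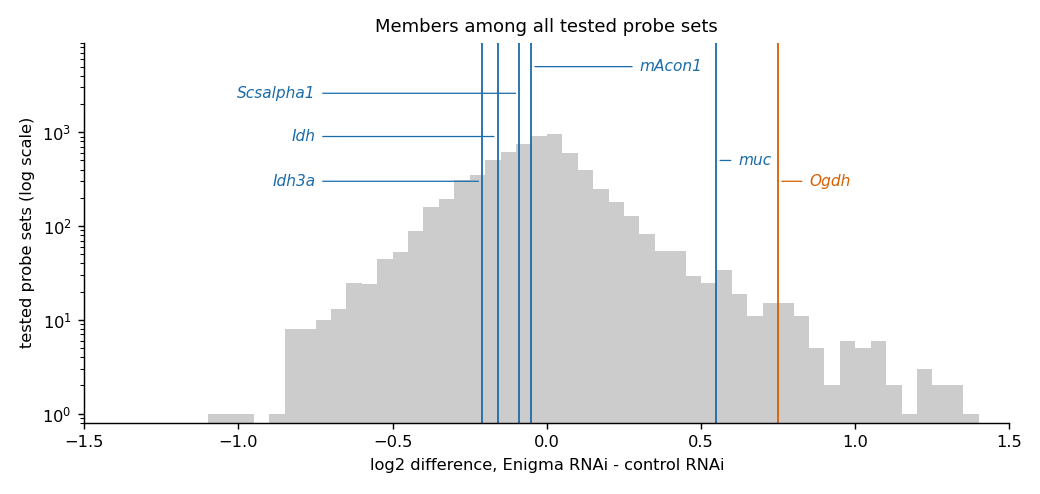
Number of tested probe sets (log scale) by log2 difference (Enigma RNAi minus control), with the 5 measured members in blue and Ogdh in orange, and 8 of 6975 probe sets outside the axis. mAcon1, Scsalpha1, Idh and Idh3a lie between -0.21 and -0.05 in the body of the distribution, while muc lies at 0.55.

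Set against all tested probe sets, the 4 lower members were unremarkable in size. A difference as low as that of Idh3a or lower was found in 16.9% of them, and the share was 24.3% for Idh, 36.3% for Scsalpha1 and 44.5% for mAcon1. In direction, 3 of the 5 members were lower in all 3 pairs, mAcon1, Idh3a and Scsalpha1, against 25.2% of all tested probe sets, and 1 was higher in all 3, muc, against 15.0%. Non-overlapping groups were found for 2 of the 5, both lower, Idh3a and Scsalpha1, against 6.16% of all tested probe sets. With 5 genes these counts are given as a description and were not tested.

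The members also differed in where their variation over the 6 arrays lay. The replicate number held 86.0% of the sum of squares of mAcon1 and 71.2% of that of Idh, and the treatment group 11.0% and 17.4%. For Idh3a and Scsalpha1 it was the other way round, with 3.96% and 14.7% for the replicate number and 55.2% and 71.1% for the group. In muc these shares were 45.8% and 40.6%. Averaged over all tested probe sets the replicate number held 61.6% and the group 18.9%. The replicate number has more levels than the group, so on average it takes the larger share even of unrelated values. The shares are given as a description. The total to be shared was small for some, since the 6 arrays of Scsalpha1 spanned 0.16 and those of mAcon1 0.24, against 1.23 for muc.

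**Figure D4:**
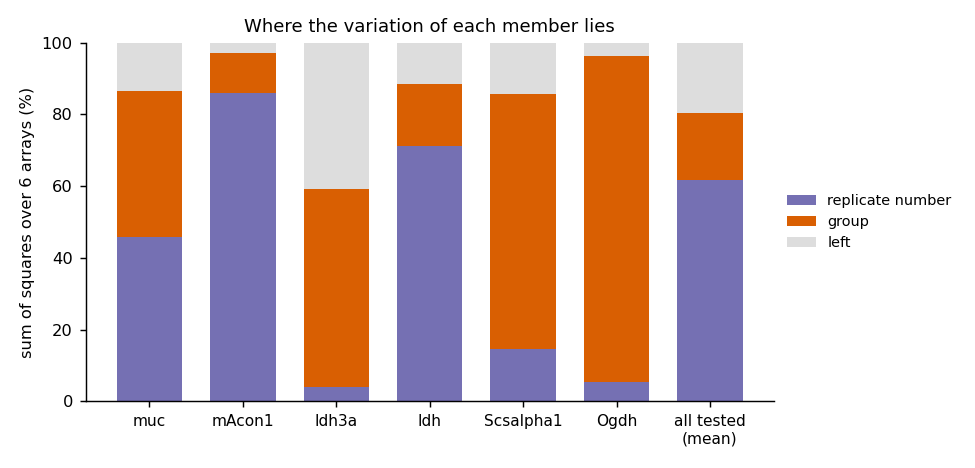
Share of each member's sum of squares over the 6 arrays that lies between replicate numbers (purple), between the treatment groups (orange) and in what is left (light grey), in percent, with Ogdh and the mean over all tested probe sets at the right. The purple part is largest for mAcon1, at 86.0%, and smallest for Idh3a, at 3.96%.

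The mean of the members' centred levels was -0.09, 0.16 and -0.08 in controls 1, 2 and 3 and -0.05, 0.02 and 0.03 after Enigma RNAi, so its high point was control 2. Of 6168 tested probe sets of other genes, those closest to this profile were CG12128, ppan, Ac13E and SerRS at r = 0.97 and wun at r = 0.96. These are Pearson correlations over 6 arrays that share replicate numbers, given as a description. The differences of these 5 genes lay between -0.04 and 0.05. The members themselves did not share the profile: r was 0.73 for muc, 0.50 for Idh, 0.37 for Idh3a, -0.10 for Scsalpha1 and -0.34 for mAcon1. Each of these genes is part of the mean it was compared with. The mean was not scaled, so muc, with the widest range, weighs most in it.

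Genes around the members were taken from 4 lists with 48 names, of which 41 had a probe set of their own and 31 were tested. Without the block 0 of the 31 passed in limma, against 0.0% of all tested probe sets, with 2 of the 31 at an unadjusted p under 0.05, Ogdh and Men-b, against 4.26%. With the block 1 passed, Ogdh, higher, against 0.358% of all tested probe sets in that direction. The change of Ogdh was known from these data before the lists were chosen, so no excess is read from counts that include it. With the number as a random block 0 passed, and Ogdh had an adjusted p of 0.102 in limma. With the block 6 of the 31 had an unadjusted p under 0.05, against 19.3% of all tested probe sets, so that share was near the background. The median difference of the 31 was 0.03, against -0.03 for all tested genes.

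The list of partners of the complex and of pyruvate entry had 6 tested genes, CG7430, Pdk, Pdp, Mpc1, CG9399 and PCB. Of these 0 passed with or without the block, and the median was 0.07. Pdk, the kinase that switches pyruvate dehydrogenase off, differed by 0.03, 0.23 and 0.23 in the 3 pairs, and Pdp, the phosphatase that switches it on, by -0.12, -0.26 and -0.08, and neither passed. CG9399, listed by RefSeq with the synonym dMPC2, had levels of 6.66, 6.60 and 6.39 in controls and 7.01, 6.72 and 6.74 after Enigma RNAi. Its groups did not overlap, and its difference of 0.28 with a standard error of 0.13 did not pass (limma, adjusted p = 0.999, and adjusted p = 0.182 with the block), and it was 0.18 without Enigma 1.

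Of 11 tested genes for other subunits and isoforms of the cycle, only Ogdh passed, with the block, and the median was 0.01. The other 9 with a probe set were below the filter, among them mAcon2, Scsalpha2, Fum3 and SdhAL, isoforms of cycle enzymes. SdhC, a membrane anchor of succinate dehydrogenase, differed by -0.17, -0.41 and -0.06 in the 3 pairs with no overlap between the groups and did not pass (limma, adjusted p = 0.999, and adjusted p = 0.315 with the block). Of 9 tested genes of anaplerosis and exchange 0 passed, with a median of 0.03, and the largest differences were those of the malic enzymes, which make pyruvate from malate. Men-b had levels of 10.73, 11.16 and 10.50 in controls and 11.21, 11.38 and 11.62 after Enigma RNAi. Its groups did not overlap, and its difference was 0.61 with a standard error of 0.20 (limma, adjusted p = 0.999, and adjusted p = 0.110 with the block), and 0.41 on its other probe set. With the block it was 0.67 without replicate 1, where it passed (limma, adjusted p = 0.00541), and 0.35 without replicate 3. Men differed by 0.45 with a standard error of 0.26 (adjusted p = 0.0709 with the block in limma), by 0.22 without control 1 and 0.30 without Enigma 2, and by 0.08 on its other probe set, so its probe sets gave different sizes.

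Of 5 tested genes of other 2-oxoacid dehydrogenases and of lipoate attachment 0 passed, with a median of 0.07. The largest differences were those of Dbct, which RefSeq also lists as dDBT, at -0.30, and of Las, the lipoate synthase, at 0.21, or 0.09 without Enigma 3. Dbct was lower in all 3 pairs, with differences of -0.24, -0.14 and -0.52, and its groups overlapped. Without single arrays its difference lay between -0.48 without control 2 and -0.21 without control 1 or Enigma 2.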

How the data were processed

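RNA of 6 samples was measured on 1-colour Affymetrix arrays. Per the submitters' processing notes, the authors used GCRMA (version not given in the sources used here), which subtracts background, puts the arrays on 1 scale and reduces each probe set to 1 value. The deposited numbers, from -0.32 to 14.30, were read as log2 because GCRMA gives that scale. No label states it. Of 14010 probe sets, 44 controls were left out. Gene names came from GEO's platform annotation, in which 12444 probe sets had 1 gene, 327 had several and 1239 had none, and names were checked against RefSeq by Entrez number. No build is named, so no coordinates are given, and no sequences were used.

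The test was limma's moderated fit (lmFit, then eBayes; limma 3.58.1, R 4.3.3), two-sided and without a block, and its steps were tested on simulated data. Replicate numbers come from the titles, and same-numbered arrays were treated as pairs. Their deviations from the group means correlated at 0.80, 0.64 and 0.65. Arrays with different numbers were not compared in this way, so the pairing itself was not tested. For a gene with several probe sets, the one with the highest mean stood for it. Members and lists were chosen with earlier results of these data known. The text names all members, Egm, list genes past the threshold with or without the block, the 2 largest differences per list and the 5 closest profiles. Other genes were named after their values were seen: the further subunits of the complex and the cycle, Pdk, Pdp, Mpc1, PCB and the isoforms below the filter. Alternatives were other blocks, filters, normalizations, a floor, array weights and leaving out arrays. The number of arrays limits the precision. No 2 arrays of a group held identical values.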

Additional observations from a re-analysis of the deposited data

How the results depend on the processing

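Of 21 alternatives, 20 left 0 of the 5 members past the threshold, and with the replicate block and without replicate 1 there was 1, muc. The median of the members lay between -0.11 and -0.05. With array weights the difference of mAcon1 was 0.01. The Enigma difference passed at -2.72 with the replicate block, with the number as a random block and with the block plus quantile normalization, cyclic loess or no filter, and at -2.71 and -2.63 with the block without replicate 1 or 2. Without replicate 3 in the blocked fit, or with a mean log2 of at least 6, it was not tested. Over all tested probe sets 44 passed with the block and 3 with a random block. With the block and a further choice, 1 passed under each of quantile normalization, cyclic loess and no filter, 94 with a mean log2 of at least 6, and 595, 2 and 7 without replicate 1, 2 and 3. Of the other subunits and isoforms of the cycle, Ogdh was the 1 that passed with the block, and 0 passed with a random block. With the block there was also 1 with a mean log2 of at least 6 and there were 2 without replicate 1, Ogdh and ScsbetaG, and of the anaplerosis genes 1 without replicate 1, Men-b. The cause was not tested. Without a fixed or random block, in no alternative did any probe set pass. The replicate block changed no other call named in the text.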
